A study of Mus musculus with 14 samples.

Results

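The 10 genes described here carry out antigen presentation by the major histocompatibility complex (MHC), and all 10 were found among the 42396 rows of the gene tables. Class I was represented by 5 genes (H2-K1, H2-D1, B2m, Tap1 and Tapbp) and class II by 5 genes (H2-Aa, H2-Ab1, H2-Eb1, Cd74 and Ciita). The genes were taken from a named list and not selected by a threshold on measured values. All 10 passed the filter on low values in both experiments.

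The libraries came from RNA of whole hearts, all from female FS6KD mice. These mice carry a gene-trap insertion in both copies of Ndufs6, a complex I subunit, on a mixed genetic background of C57BL/6J and another inbred strain. In the knockout experiment, hearts of 12-week Atf3-/-FS6KD mice (4 libraries) were compared with Atf3+/+FS6KD hearts (4 libraries). The Atf3 deletion was made by CRISPR-Cas9 in FS6KD eggs and spans exons of the coding region. It is present in every cell type of the heart, and edited founders were intercrossed. In the AAV experiment, FS6KD hearts injected with MyoAAV2-shAtf3 as neonates (3 libraries) were compared with hearts given MyoAAV2-shCtrl (3 libraries). MyoAAV2 is a muscle-directed adeno-associated virus, so the knockdown was aimed at muscle cells. Age at collection was taken as 12 weeks for the knockout experiment, and the labels leave it unclear whether that number is an age or a time since injection in the AAV experiment. The column names of the AAV table read opposite to the sample titles. Groups follow the titles, and every AAV direction below depends on them.

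Atf3 counts did not separate the groups in the direction of the labels. The Atf3 level, as CPM, a gene's count scaled to the same total count in every library, was 25.4, 6.60, 6.80 and 6.24 in the Atf3+/+FS6KD libraries and 25.7, 38.7, 23.6 and 14.4 in the libraries labelled Atf3-/-FS6KD. The libraries labelled shCtrl were at 10.3, 13.4 and 14.2, and those labelled shAtf3 at 20.8, 12.1 and 16.2. Counts over a whole gene also include reads from exons outside a deletion, so they do not check it. Every direction below is that of the labels. Total counts were 33914931 to 134920825 per library in the knockout experiment, where replicates 1 and 2 of both groups were shallower than replicates 3 and 4, and 30085432 to 40534913 in the AAV experiment. The cardiomyocyte markers summed to between 51624 and 75623 CPM across the knockout libraries. The presentation genes took 0.0882% to 0.193% of all counts in a library, and the highest share was in Atf3-/-FS6KD replicate 2.

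MHC class I molecules display peptides from inside the cell to CD8 T cells and are made by nearly all nucleated cells. H2-K1 and H2-D1 encode heavy chains, B2m the invariant light chain, Tap1 a subunit of the transporter that moves peptides into the endoplasmic reticulum, and Tapbp (tapasin) the bridge between that transporter and the empty heavy chain. MHC class II molecules display peptides from ingested material to CD4 T cells and are made mainly by dendritic cells, macrophages and B cells, which are a minority of cells in a heart. H2-Aa and H2-Ab1 encode the alpha and beta chains of the A molecule, H2-Eb1 the beta chain of the E molecule, Cd74 the invariant chain that guards the groove, and Ciita the transactivator on which class II transcription depends. Interferon-gamma raises both classes. Class II promoters share the X and Y boxes, and class I promoters hold a related module.

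Promoter stretches are shown for the genes whose stretch holds a CCAAT core, since class I and class II promoters are known for such boxes. RefSeq promoters of the GRCm38.p6 build were examined for 7 of the 10 genes (B2m, Tapbp, H2-K1, Tap1, H2-Aa, H2-Eb1 and H2-D1). Promoters of Cd74, H2-Ab1 and Ciita were not examined, which does not mean that these genes lack a listed promoter. Each line gives the coding strand from position -150 to position 20 relative to a RefSeq start, which for H2-K1 lies inside the RefSeq extent of the gene. Tapbp and Tap1 are not printed, because the Tapbp stretch held no marked core and the Tap1 stretch held TGACG alone. Capitals mark CCAAT (the Y box core), TGACG (the CRE core of the X2 box), AGCAAC (a core of the X1 box) or the core of the interferon-stimulated response element, on either strand.
B2m, chr2:122147537-122147706, plus strand: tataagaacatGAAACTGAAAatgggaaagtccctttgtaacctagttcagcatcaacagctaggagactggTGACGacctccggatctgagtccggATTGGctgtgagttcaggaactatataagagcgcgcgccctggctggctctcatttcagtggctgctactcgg
H2-K1, chr17:34000328-34000497, minus strand: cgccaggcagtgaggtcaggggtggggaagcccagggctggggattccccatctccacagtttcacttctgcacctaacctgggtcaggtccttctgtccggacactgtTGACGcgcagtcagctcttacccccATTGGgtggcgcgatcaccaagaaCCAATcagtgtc
H2-D1, chr17:35262944-35263113, plus strand: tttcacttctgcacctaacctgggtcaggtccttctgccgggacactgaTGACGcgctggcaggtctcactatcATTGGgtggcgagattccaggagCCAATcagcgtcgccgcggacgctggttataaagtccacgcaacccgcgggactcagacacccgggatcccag
H2-Aa, chr17:34287804-34287973, minus strand: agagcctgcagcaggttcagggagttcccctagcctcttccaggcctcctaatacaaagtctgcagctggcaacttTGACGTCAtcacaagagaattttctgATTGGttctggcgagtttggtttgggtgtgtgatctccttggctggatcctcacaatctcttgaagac
H2-Eb1, chr17:34305717-34305886, plus strand: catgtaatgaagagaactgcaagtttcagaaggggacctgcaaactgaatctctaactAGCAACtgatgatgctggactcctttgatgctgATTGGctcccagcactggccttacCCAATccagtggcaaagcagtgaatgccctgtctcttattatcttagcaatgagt

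CCAAT was present in the 300-base window of all 7 promoters, against 37.4% of 32851 promoters of the RefSeq table. TGACG was present in 5 of them (B2m, H2-K1, Tap1, H2-Aa and H2-D1), against 20.8% of promoters, and in H2-Aa the matches on both strands overlap. AGCAAC was found in H2-Eb1 alone of the 7 (14.8% of promoters) and the interferon-stimulated response element core in B2m alone (3.44%). TTCNNNGAA, the pattern bound by STAT factors, was in none of the 7 windows and in 8.30% of promoters. These matches describe letters in a window and not occupied sites. Only the exact patterns were searched, so a promoter without a match may still hold a variant of the same box or element. H2-K1 and H2-D1 are paralogs, so their levels are uncertain wherever reads match both.

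Counting was complicated by copies. The gene tables hold 2379 rows named as a gene followed by a number from 1 to 3. Of the presentation genes, 7 had 3 such rows each (21 rows in all), and B2m, Cd74 and Ciita had none. The labels do not state what the copies are. Counts were divided between rows in fractions, so a single row understates the gene. In every library 25.0% of the H2-D1 count lay on each of its 4 rows. For the other genes the row with the gene's name and row _1 carried nearly the same count, and rows _2 and _3 carried less. Tests below were run on the row bearing the gene's name and again on the sum of all rows, and levels are given as the sum.

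The division between copies differed in one library. In Atf3+/+FS6KD replicate 2, rows _2 and _3 of H2-K1 took 28.1% of its count, against 0 to 0.026% in the other 13 libraries. For H2-Aa the share was 46.3% against 0.477% to 1.05%, and for H2-Ab1 it was 38.6% against 1.67% to 2.48%. H2-Eb1 gave 31.9% against 11.3% to 14.6%. The gap was smaller for Tap1 (41.9% against 31.6% to 36.3%) and for Tapbp (36.3% against 31.5% to 33.8%). H2-D1 was within the range of the rest in that library. The plot of counts on the last copy rows shows these shares for each library.

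**Figure D1:**
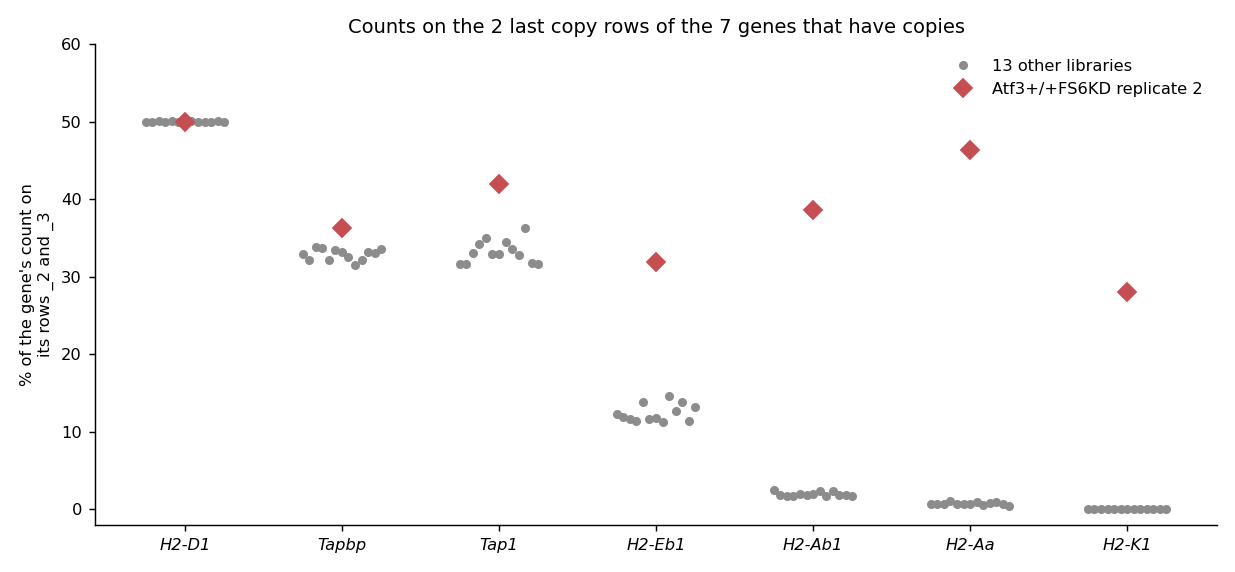
Percentage of each gene's count that lay on its rows _2 and _3 (vertical axis) for the 7 genes with copies. Each point is a library. The diamond is Atf3+/+FS6KD replicate 2, which lies above the 13 other libraries in 6 genes and among them in H2-D1.

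The stretch of the chromosome that differed in this library could be traced along the genes. Between Tapbp and H2-D1 (chr17:33919478-35267497 in the GRCm38 build), 67 genes with rows _2 and _3 had at least 50 counts in every library. Atf3+/+FS6KD replicate 2 held the highest share of all 14 libraries in 32 of them. All 24 such genes from Tapbp to Notch4 were among these, with a median excess of 11.3 percentage points over the highest other library. After Notch4 it was highest in 8 of 43 genes, and the median excess was -0.050 points. Notch4 was picked as the border after the shares were seen. The share was over 2 times the highest other library in 6 genes (Rps18, H2-K1, H2-DMb1, H2-Ab1, H2-Aa and H2-Eb1).

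H2-Ea, which encodes the alpha chain that pairs with the H2-Eb1 product, separated the same library. It had 655 counts over its 4 rows in Atf3+/+FS6KD replicate 2, or 19.3 CPM of total counts, and 0 counts in each of the other 13 libraries, where 3 counts would have been 0.0222 to 0.0997 CPM. As background, mice of the H2-b haplotype, C57BL/6 among them, carry a deletion at this gene and make no transcript from it. The haplotype of these mice was not tested. In this library the row with the gene's name held 26.9% of the H2-Aa count and 36.4% of the H2-K1 count, against at least 49.5% and 50.3% elsewhere, so a fit on that row counts less of both genes in this Atf3+/+FS6KD library.

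Per kilobase of exon, the order of the median levels was the same in both experiments. Values here are summed CPM divided by exon length. B2m was highest, with a median of 398 CPM per kb in the knockout experiment (332 to 709), and its range did not overlap that of the next gene. H2-D1 (median 92.2) and H2-K1 (66.7) followed, then Cd74 (45.4), and the range of each overlapped the next. Tapbp (20.9) lay below Cd74 with no overlap. The ranges of Tapbp, H2-Eb1 (14.7), H2-Ab1 (9.90) and H2-Aa (9.82) overlapped from one to the next. Tap1 (2.40) and Ciita (1.29) were lowest, and the range of each was clear of its neighbours. In the AAV experiment the same order held, with medians of 390 for B2m, 52.7 for Cd74 and 1.24 for Ciita.

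Class I chains were most abundant in Atf3-/-FS6KD replicate 2. B2m measured 286, 422, 343 and 292 CPM in Atf3+/+FS6KD and 398, 610, 342 and 324 CPM in Atf3-/-FS6KD. H2-K1 measured 173, 208, 190 and 177 CPM in Atf3+/+FS6KD and 249, 334, 192 and 200 CPM in Atf3-/-FS6KD. H2-D1 measured 197, 279, 233 and 225 CPM against 269, 361, 240 and 235 CPM. The ranges of the groups overlapped for all 3 chains. On the row named for the gene, H2-K1 did not overlap (75.8 to 95.5 CPM against 96.7 to 168 CPM).

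The loading genes were less abundant than the chains. Tap1 measured 10.7, 16.0, 11.1 and 12.6 CPM in Atf3+/+FS6KD and 14.7, 20.9, 13.7 and 11.7 CPM in Atf3-/-FS6KD. Tapbp measured 68.8, 74.7, 69.5 and 77.0 CPM against 69.9, 84.8, 83.9 and 81.8 CPM. In Tapbp the library at the low end of Atf3-/-FS6KD was replicate 1, and the other 3 were above all Atf3+/+FS6KD libraries.

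Class II chains stood apart in Atf3-/-FS6KD replicate 2 more clearly than class I. H2-Aa measured 32.5, 51.6, 26.7 and 44.6 CPM in Atf3+/+FS6KD and 42.1, 103, 32.3 and 32.0 CPM in Atf3-/-FS6KD. H2-Ab1 measured 22.1, 31.8, 20.2 and 33.9 CPM against 26.2, 69.4, 24 and 24.7 CPM. H2-Eb1 measured 24.4, 37.6, 21.4 and 32.6 CPM against 33.8, 79.9, 24.7 and 23.6 CPM. The other 3 Atf3-/-FS6KD libraries lay inside the Atf3+/+FS6KD range for each chain. Cd74 measured 65.4, 116, 54.9 and 89.2 CPM in Atf3+/+FS6KD and 85.6, 195, 67.0 and 64.7 CPM in Atf3-/-FS6KD, with the same library at the top.

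Ciita varied little between libraries. It measured 11.1, 10.6, 12.9 and 12.9 CPM in Atf3+/+FS6KD and 11.9, 13.1, 12.1 and 12.5 CPM in Atf3-/-FS6KD. In the AAV experiment it measured 12.0, 11.3 and 11.6 CPM in shCtrl and 12.7, 11.7 and 13.3 CPM in shAtf3. The groups overlapped in both experiments. The correlation of Ciita with the mean of its class over 14 libraries, each centred on its experiment, was r = 0.40, against 0.91 to 0.99 for the other class II genes. The class mean includes the gene itself, and libraries share depth and normalization, so these are descriptions.

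**Figure D2:**
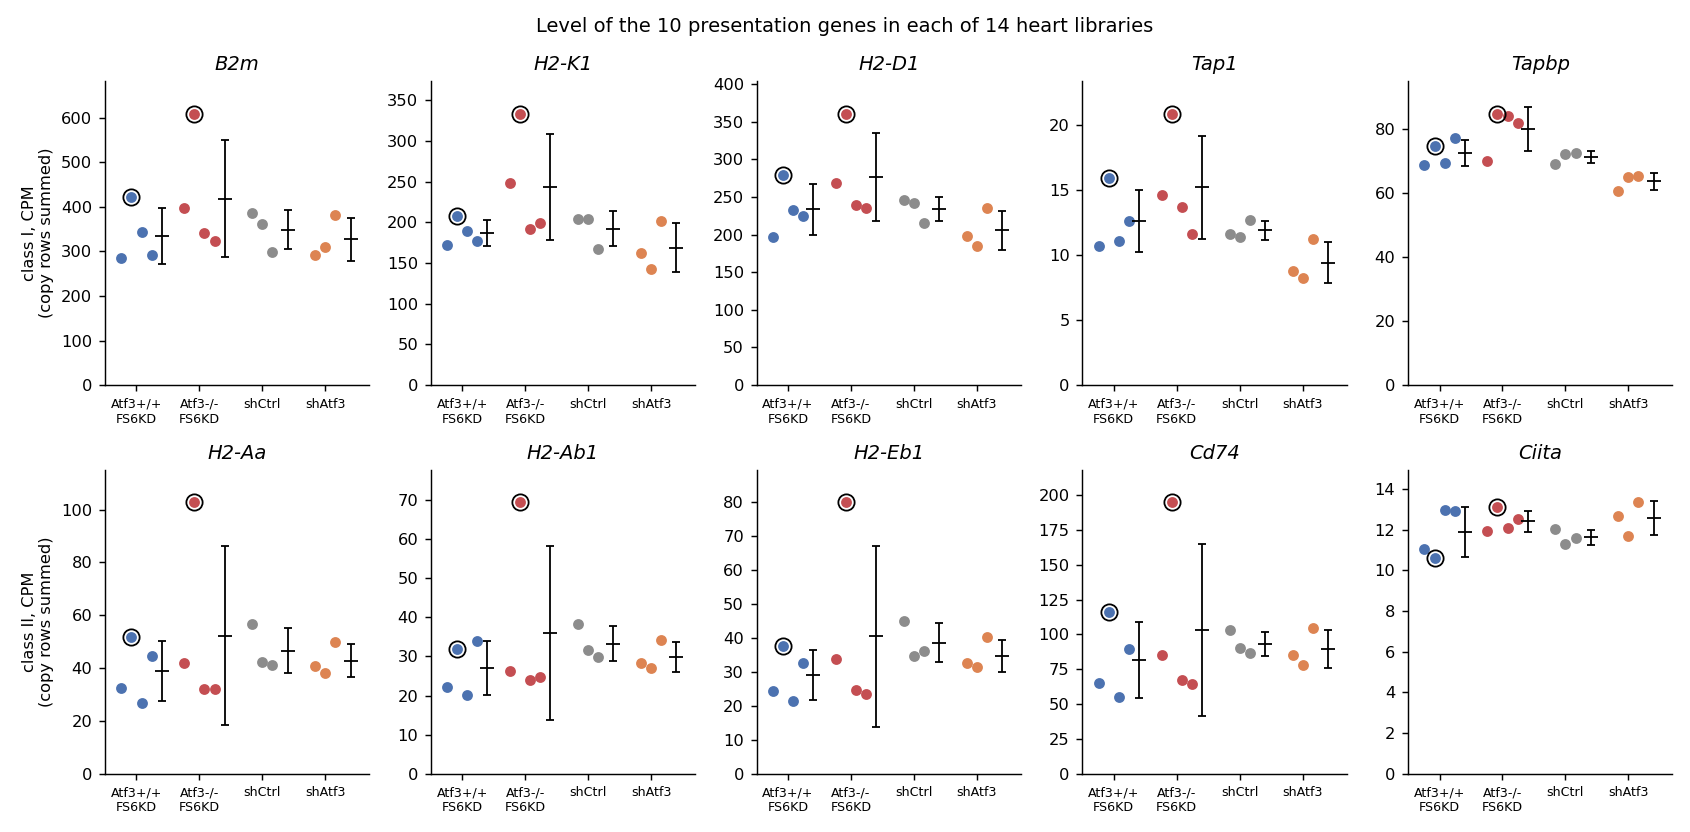
CPM with copy rows summed (vertical axes, each from 0) for the 10 genes in each library, by group. Coloured points are libraries in replicate order, black bars are the group mean ± SD, and circles mark replicate 2 of both knockout experiment groups; Atf3-/-FS6KD replicate 2 is the highest library for 9 of the genes (Ciita is the exception).

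No presentation gene passed the test in the knockout comparison (edgeR quasi-likelihood test, Benjamini-Hochberg adjusted over 15592 genes). None of the 15592 genes passed (0%), so the count for the 10 genes equals the background. All 5 class I genes and all 5 class II genes had a positive log2 fold change (Atf3-/-FS6KD over Atf3+/+FS6KD), against 50.2% of all genes. The log2 fold change for H2-K1 was 0.50 (SE 0.17, 95% interval 0.12 to 0.88, adjusted p = 0.398 by edgeR). It was 0.38 with rows summed (interval 0.014 to 0.75, adjusted p = 0.476 by edgeR). An unadjusted p below 0.05 was reached by H2-K1 alone, on either basis, against 10.1% of all genes on the named rows and 10.1% with rows summed, where 0% passed the adjusted threshold. On the named rows, groups did not overlap for H2-K1 alone, against 5.71% of genes, and with rows summed the groups overlapped for all 10 genes.

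The other class I genes had smaller differences. With rows summed, B2m was at 0.32 (SE 0.21), Tap1 at 0.27 (SE 0.19), H2-D1 at 0.24 (SE 0.15) and Tapbp at 0.14 (SE 0.074) on the log2 scale, and every interval included 0. The class II chains had larger point values with larger errors: H2-Eb1 was at 0.48 (SE 0.38), H2-Aa at 0.42 (SE 0.38), H2-Ab1 at 0.41 (SE 0.36) and Cd74 at 0.34 (SE 0.37). Ciita was at 0.057 (SE 0.088). Fits on the named row gave more for H2-Aa (0.65) and H2-Ab1 (0.57), for which Atf3+/+FS6KD replicate 2 held more of its counts on rows _2 and _3. The adjusted p ranged from 0.398 to 0.842 over the 10 named rows.

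The class II values of the knockout comparison depended on Atf3-/-FS6KD replicate 2. On the named rows and without this library, the log2 fold change was 0.095 for H2-Aa, 0.048 for H2-Ab1, 0.026 for H2-Eb1 and -0.17 for Cd74. With rows summed and without this library, the log2 fold change was -0.13 for H2-Aa, -0.11 for H2-Ab1, -0.09 for H2-Eb1 and -0.17 for Cd74. The class I genes stayed above 0, at 0.19 for H2-K1, 0.12 for Tapbp, 0.09 for H2-D1, 0.08 for Tap1 and 0.08 for B2m. The alternative with rows summed was added after the data were seen. With rows summed, also added later, the shallower replicates 1 and 2 alone gave a class II median of 0.79 and a class I median of 0.42. The deeper replicates 3 and 4 alone gave -0.15 and 0.10. On the named rows the medians were 1.10 and 0.51 in the shallower set and -0.14 and 0.08 in the deeper set. Atf3-/-FS6KD replicate 2 belongs to the shallower set. Replicate 1 of the same group had a similar total count (35133224 against 37058252) and lay inside the Atf3+/+FS6KD range for each class II chain. The part of depth in these values was not tested. Leaving out Atf3+/+FS6KD replicate 2 instead, with rows summed, gave medians of 0.40 for class I and 0.56 for class II.

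In the AAV comparison the 5 class I genes all had negative values, and none passed. Of 15225 genes tested, 0.539% passed, and 0 of the 10 presentation genes did. Tap1 measured 11.6, 11.4 and 12.7 CPM in shCtrl and 8.76, 8.25 and 11.2 CPM in shAtf3, and the groups did not overlap. Its log2 fold change with rows summed was -0.34 (SE 0.12, interval -0.62 to -0.066, unadjusted p = 0.0204, adjusted p = 0.285 by edgeR). Tapbp measured 69.2, 72.3 and 72.4 CPM in shCtrl and 60.7, 65.0 and 65.2 CPM in shAtf3, again with no overlap. Its log2 fold change was -0.16 (SE 0.060, adjusted p = 0.291 by edgeR). With rows summed, an unadjusted p below 0.05 was reached by these 2 genes, against 12.8% of all genes, and 0.617% of all genes passed the adjusted threshold. On the named rows only Tap1 reached it, against 12.7% of all genes, and only Tapbp did not overlap, against 18.4% of all genes.

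The class I chains overlapped between the AAV groups. B2m measured 387, 361 and 300 CPM in shCtrl and 292, 309 and 382 CPM in shAtf3. H2-K1 measured 204, 204 and 167 CPM against 162, 142 and 201 CPM, and H2-D1 245, 242 and 216 CPM against 198, 184 and 235 CPM. In each of these chains shAtf3 replicate 3 was the highest of its group and lay inside the shCtrl range. Their log2 fold changes were -0.09 for B2m, -0.19 for H2-K1 and -0.19 for H2-D1, with intervals that included 0.

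Class II genes also overlapped between the AAV groups. H2-Aa measured 56.5, 42.3 and 41.0 CPM in shCtrl and 40.7, 38.1 and 49.8 CPM in shAtf3. H2-Ab1 measured 38.3, 31.6 and 29.8 CPM against 28.2, 27.0 and 34.2 CPM, H2-Eb1 45.1, 34.8 and 36.0 CPM against 32.6, 31.3 and 40.2 CPM, and Cd74 103, 90.3 and 86.7 CPM against 85.4, 78.3 and 105 CPM. In all 4 genes shCtrl replicate 1 and shAtf3 replicate 3 were the highest of their groups. The log2 fold change was -0.12 for H2-Aa, -0.16 for H2-Ab1, -0.16 for H2-Eb1, -0.06 for Cd74 and 0.11 for Ciita, and every interval included 0. For H2-Aa the interval was -0.43 to 0.18, which covers differences of either sign.

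**Figure D3:**
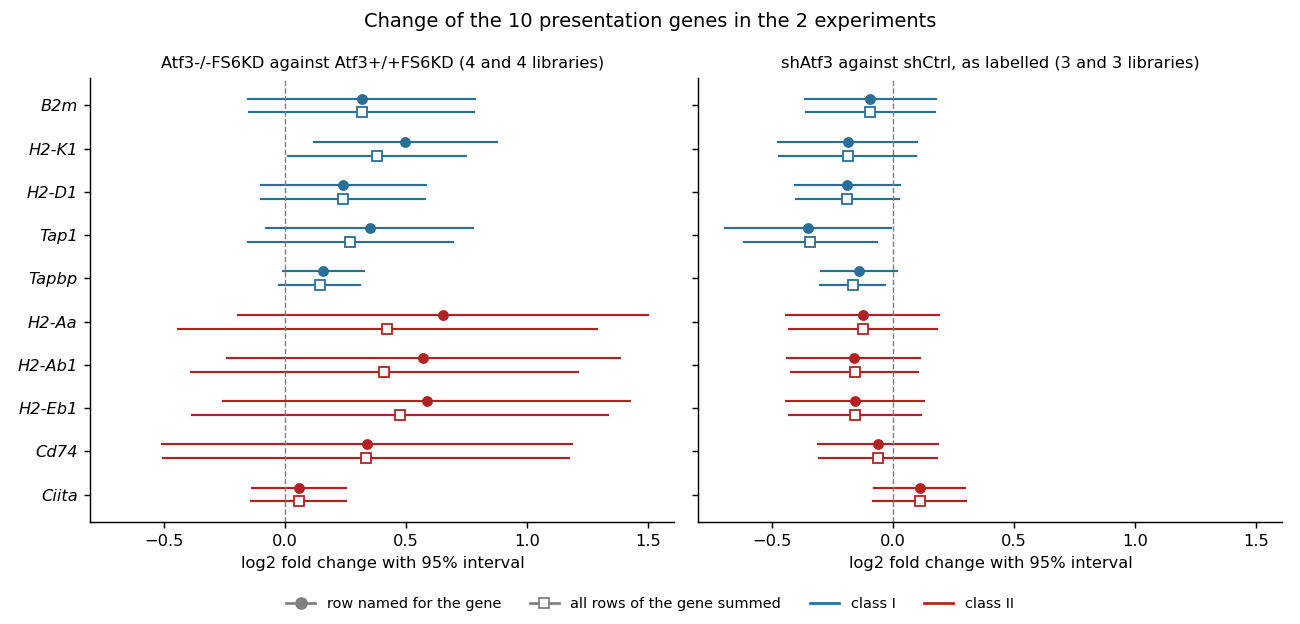
Log2 fold change with its 95% interval (horizontal axis) for each gene in the knockout comparison (left) and the AAV comparison (right). Filled circles are the row named for the gene, open squares all rows summed; all intervals of the class II genes include 0 in both panels, and they are wider on the left.

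The effect in the knockout experiment minus that in the AAV experiment was tested for each gene in a single fit of all 14 libraries. Of 15708 genes, 0.166% passed, and none of the 10 presentation genes did. The difference was positive for all 5 class I genes, at 0.69 for Tap1 (SE 0.27, adjusted p = 0.213 by edgeR), 0.68 for H2-K1 (SE 0.24, adjusted p = 0.179 by edgeR) and 0.29 for Tapbp (SE 0.10, adjusted p = 0.166 by edgeR) on the log2 scale. These 3 had an unadjusted p below 0.05, against 17% of all genes. B2m was at 0.41 and H2-D1 at 0.42. For class II the values, on the named rows as for class I, were 0.77 for H2-Aa, 0.72 for H2-Ab1, 0.73 for H2-Eb1, 0.40 for Cd74 and -0.06 for Ciita, with adjusted p from 0.458 to 0.854 by edgeR. With rows summed, the class II chains were at 0.54 for H2-Aa, 0.56 for H2-Ab1 and 0.63 for H2-Eb1, and Cd74 stayed at 0.40. On the named rows, the class II median of the difference was 0.72, and 0.17 without Atf3-/-FS6KD replicate 2. The values of this contrast depend on the AAV labels. With the AAV groups exchanged, as the column names read, Tap1 was at -0.0016, Tapbp at 0.022, H2-D1 at 0.057, B2m at 0.23 and H2-K1 at 0.31, and the class II values ran from 0.17 for Ciita to 0.53 for H2-Aa. This alternative was added after the data were seen.

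The classes were then set beside each other. The median log2 fold change on the named rows was 0.32 for class I and 0.57 for class II in the knockout comparison, where the median over all genes tested was 0.00054. With rows summed it was 0.27 and 0.41. In the AAV comparison it was -0.19 for class I and -0.12 for class II, with -0.0029 over all genes. Within a library, the mean log2 CPM of class II minus that of class I, rows summed, was -1.83, -1.72, -2.10 and -1.53 in Atf3+/+FS6KD and -1.90, -1.30, -2.04 and -1.98 in Atf3-/-FS6KD. The groups overlapped, and replicate 2 of Atf3-/-FS6KD had the largest class II share of the 14 libraries. The difference was -1.40, -1.65 and -1.56 in shCtrl and -1.39, -1.44 and -1.42 in shAtf3. The group means of the difference were -1.79 ± 0.24 (SD, n = 4) in Atf3+/+FS6KD and -1.80 ± 0.34 (SD, n = 4) in Atf3-/-FS6KD. No test was run on these means because the genes were listed with earlier results known.

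**Figure D4:**
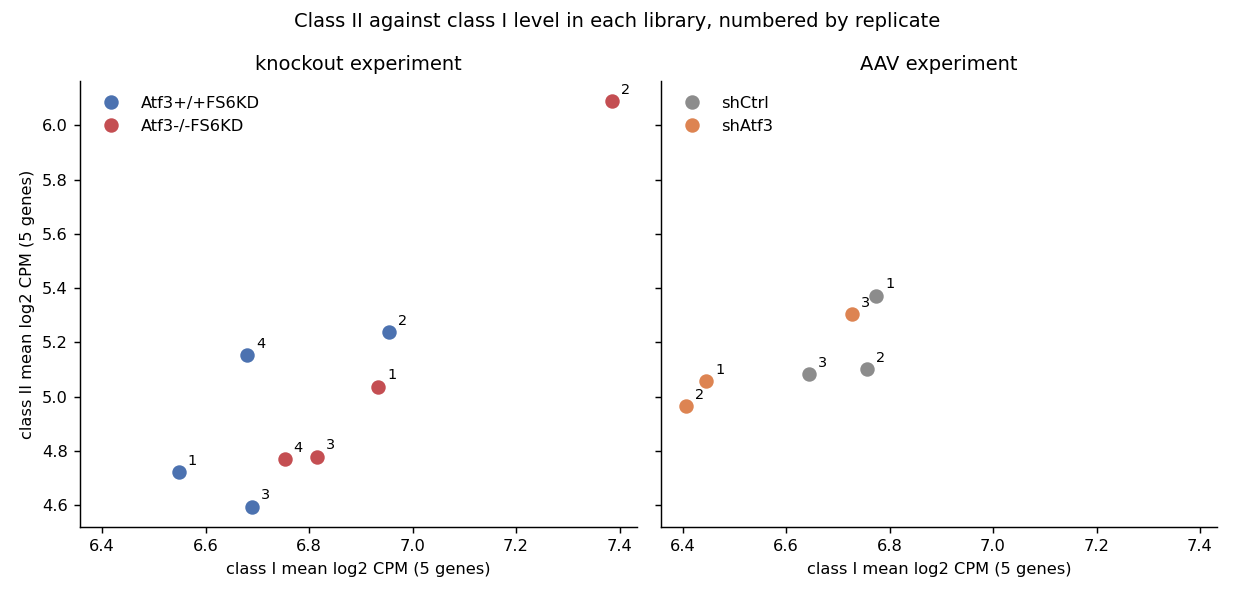
Mean log2 CPM of the 5 class II genes (vertical axis) against that of the 5 class I genes (horizontal axis), copy rows summed, in each library of the knockout (left) and AAV (right) experiments. Points are libraries numbered by replicate; Atf3-/-FS6KD replicate 2 lies at the upper right of the left panel, at 7.38 for class I and 6.09 for class II.

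The library with the highest class II level also had the highest sums of 4 immune cell lists in the knockout experiment. In bulk tissue, fewer or more cells of a type and less or more RNA per cell cannot be told apart. In Atf3-/-FS6KD replicate 2 the T and NK cell markers summed to 9.47 CPM, against 4.01 to 4.24 in the other Atf3-/-FS6KD libraries and 3.15 to 4.18 in Atf3+/+FS6KD. The B cell markers summed to 21.0 CPM in this library, against 14.5 to 16.5 and 10.5 to 13.9. The macrophage markers summed to 587 CPM, against 411 to 519 and 370 to 456, and the dendritic cell markers to 36.8 CPM, against 29.4 to 36.0 and 22.3 to 30.02. Among the Atf3+/+FS6KD libraries the macrophage sum was highest in replicate 3, at 456 CPM, where the class II chains were lowest. The B cell sum was higher in every Atf3-/-FS6KD library than in any Atf3+/+FS6KD library, while the class II chains were not. The part of these cells in the class II values was not tested.

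By median, every list except the endothelial and cardiomyocyte markers had the same direction as class I in both experiments. The macrophage and fibroblast lists, which share it, are given first. All 13 macrophage markers were tested, 13 had positive values in the knockout comparison (median 0.31, 4 at an unadjusted p below 0.05) and 12 had negative values in the AAV comparison (median -0.22, 5 at that level), against 10.1% and 12.7% of all genes at that level. By edgeR 0 passed the adjusted threshold in either, and DESeq2 called Mertk in the knockout comparison. Mertk, a receptor for engulfing dying cells, was at 0.62 (SE 0.16, adjusted p = 0.329 by edgeR) and Ccr2, the receptor of recruited monocytes, at 0.89 (SE 0.27, adjusted p = 0.383 by edgeR) in the knockout comparison, with the F4/80 gene Adgre1 at 0.36 (SE 0.16). In the AAV comparison the complement genes C1qa, C1qc and C1qb were at -0.22 (SE 0.069), -0.22 (SE 0.070) and -0.17 (SE 0.059). Of the 8 fibroblast markers, 8 had positive values in the knockout comparison (6 at an unadjusted p below 0.05, against 10.1% of all genes, and 0 passing by edgeR) and 8 negative values in the AAV comparison (8 at that level, against 12.7%). In the knockout comparison Col3a1 was at 0.71 (SE 0.13), Col1a1 at 0.63 (SE 0.18) and Col1a2 at 0.48 (SE 0.13), and DESeq2 called these 3. Over all genes DESeq2 also called more than edgeR in this comparison, and the counts are given in the last section. In the AAV comparison, where 0.539% of all genes passed, 4 matrix genes fell: Postn by 1.14, Col3a1 by 1.05, Col1a1 by 0.84 and Col1a2 by 0.82 on the log2 scale (adjusted p 0.0293 to 0.0328 by edgeR). The fibroblast calls were lost when shCtrl replicate 2 or any shAtf3 library was left out (adjusted p 0.0842 to 0.178 by edgeR), with log2 fold changes from -1.17 to -0.76.

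Among the markers of antigen-presenting cells, Zbtb46, a factor of conventional dendritic cells, was at 0.33 (SE 0.10) and Itgax (CD11c) at 1.11 (SE 0.41) in the knockout comparison, neither past the adjusted threshold. Of 10 dendritic cell markers, 5 were tested there (4 positive) and 4 in the AAV comparison (2 positive, 2 negative). Ccr7, the receptor of migrating dendritic cells, was at 0.58 (SE 0.49) in the former, and Itgax at -0.64 (SE 0.28), Clec9a at -0.20 (SE 0.16) and Xcr1 at 0.25 (SE 0.21) in the latter. Of 8 B cell markers, 3 were tested (3 positive), with the mu heavy chain Ighm at 0.45 (SE 0.15), and 2 in the AAV comparison (2 negative, Blnk at -0.44 with SE 0.23 and Ighm at -0.21 with SE 0.17). The B cell genes Cd79b and Blnk were at 0.48 (SE 0.23) and 0.27 (SE 0.19) in the knockout comparison. Of 10 T and NK cell markers, 3 were tested (3 positive) and 1 in the AAV comparison (negative). Cd4 was at 0.40 (SE 0.32) and -0.48 (SE 0.23), and the T cell receptor components Cd3e and Cd3g at 0.77 (SE 0.63) and 0.66 (SE 0.54) in the knockout comparison. Means in Atf3+/+FS6KD and Atf3-/-FS6KD were 0.35 and 0.58 CPM for Cd3e, 0.36 and 0.60 CPM for Cd3g, and 0.40 and 0.63 CPM for Ccr7. At such levels 1 high library can decide both whether a gene is tested and its sign. The counts of positive values in these short lists are therefore descriptions. The 8 endothelial markers had 7 positive values with a median of 0.085 in the knockout comparison and 5 with a median of 0.032 in the AAV comparison. Vwf was at -0.19 (SE 0.078), Emcn at 0.14 (SE 0.086) and Pecam1 at 0.075 (SE 0.060) in the knockout comparison, and Tie1 at -0.077 (SE 0.060), Cdh5 at 0.057 (SE 0.068) and Kdr at 0.059 (SE 0.074) in the AAV comparison. Of the 8 cardiomyocyte markers, 7 had negative values in the knockout comparison (median -0.16) and 0 in the AAV comparison (median 0.11). Tnnt2, a troponin gene, was at -0.36 (SE 0.082) and 0.14 (SE 0.079), the actin gene Actc1 at 0.47 (SE 0.12) and 0.17 (SE 0.060), Ttn at -0.24 (SE 0.13) in the knockout comparison and Myl2 at 0.13 (SE 0.059) in the AAV comparison. None of these passed by edgeR, and DESeq2 called Tnnt2 and Actc1 in the knockout comparison.

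The remaining genes of the pathways were examined from lists, on the row bearing each gene's name. Of 18 other class I heavy chains, 13 were tested in the knockout comparison, with 7 positive and 6 negative values (median 0.21) and none passing. In the AAV comparison 3 were positive and 9 negative. H2-Q4, a Qa heavy chain, was at 0.27 (SE 0.16) and -0.24 (SE 0.11), and with rows summed at 0.13 and -0.18, while Hfe, which regulates iron uptake and presents no peptide, was at -0.32 (SE 0.11) in the knockout comparison. Mr1, which presents vitamin metabolites, was at -0.21 (SE 0.12) there. H2-T23, the Qa-1 heavy chain, was at -0.28 (SE 0.092) and H2-T24 at 0.25 (SE 0.12) in the AAV comparison. Of the 14 class I processing genes, 8 were positive in the knockout comparison and 6 in the AAV comparison. Lnpep, an aminopeptidase of endosomes that trims peptides, had the smallest p of this list in the knockout comparison, at -0.28 (SE 0.086, unadjusted p = 0.00863 and adjusted p = 0.383 by edgeR), and was at 0.23 (SE 0.11) in the AAV comparison. It was the one gene of the list at an unadjusted p below 0.05 in the knockout comparison. Tap2, the partner of Tap1, was at 0.18 (SE 0.099) and -0.19 (SE 0.091), with rows summed at 0.076 and -0.18, the chaperone Pdia3 at 0.13 (SE 0.076) in the knockout comparison, and the tapasin relative Tapbpl at -0.21 (SE 0.094) in the AAV comparison.

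Of the class II processing and loading genes, 14 were tested in the knockout comparison (12 positive, 2 negative) and 13 in the AAV comparison (6 positive, 7 negative). Ctss, the protease that trims the invariant chain, was at 0.47 (SE 0.26, adjusted p = 0.569 by edgeR) in the knockout comparison and -0.45 (SE 0.089, adjusted p = 0.0767 by edgeR) in the AAV comparison. The latter passed with DESeq2 (adjusted p = 0.00118), with edgeR and no filter (adjusted p = 0.00863) and with edgeR without shCtrl replicate 3 (adjusted p = 0.0244). H2-DMb1, a chain of the peptide editor, was at 0.51 (SE 0.32) and -0.23 (SE 0.15), and with rows summed at 0.34 and -0.24. Nfya, a subunit of the factor that binds the Y box, was at 0.21 (SE 0.079) and Nfyb, another, at 0.16 (SE 0.077) in the knockout comparison. The third, Nfyc, was at 0.15 (SE 0.068) in the AAV comparison. The fit value of H2-Ea is not interpretable, since its counts came from 1 library. Of the 20 interferon-gamma signalling genes, 11 of 19 tested were positive in the knockout comparison and 3 of 19 in the AAV comparison. In the former, the receptor chain Ifngr2 was at -0.16 (SE 0.061), the factor Irf8 at 0.41 (SE 0.18) and Socs1, an inhibitor of the pathway, at 0.57 (SE 0.35). In the latter, Socs1 was at -1.005 (SE 0.40) and the GTPase Iigp1 at -0.72 (SE 0.33), with the chemokine Cxcl10 at -1.47 (SE 0.42, adjusted p = 0.201 by edgeR, and 0.0427 with no filter). Means in shCtrl and shAtf3 were 1.07 and 0.38 CPM for Cxcl10 and 0.71 and 0.35 CPM for Socs1, near the filter of 1 CPM. Of the 6 costimulation genes, 5 were tested, with 3 positive in the knockout comparison, Cd86 at 0.44 (SE 0.19) among them, and 1 in the AAV comparison. Cd80 was at 0.27 (SE 0.15) and -0.26 (SE 0.16), and Cd40 at 0.15 (SE 0.22) in the knockout comparison. Cd274, which encodes PD-L1, was at -0.50 (SE 0.28) and Icosl at 0.11 (SE 0.095) in the AAV comparison. No gene of these lists passed the adjusted threshold by edgeR on all libraries with the filter on low values.

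Genes most alike in pattern were found by the correlation with each class mean over the 14 libraries, among 12659 genes outside the list. For class I these were Ctss (r = 0.92), H2-Q4 (r = 0.91), Prkcb (r = 0.90), Pabpc1 (r = 0.90) and Rassf5 (r = 0.90), and without Atf3-/-FS6KD replicate 2 their r was 0.76 to 0.85. For class II they included Mir5107 (r = 0.93), Sae1 (r = 0.86), Prmt9 (r = 0.85) and Slmap (r = 0.84). Without that library, Mir5107 was at 0.78 and Sae1 at 0.39, so the class II likeness rested in part on this library. The values are descriptions over libraries that share depth and normalization.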

How the data were processed

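Whole-heart RNA was sequenced by the authors (TruSeq Stranded mRNA, 101-bp single-end reads), mapped to GRCm38.p6 and counted per gene with featureCounts 2.0.0. The aligner and the handling of strand and multi-mapped reads are not given in the sources used here. The deposited tables, one per experiment, hold estimated counts that are not all whole. They were rounded. Groups follow the sample titles. Genes above 1 CPM in at least 1 library were kept, and each experiment was fitted alone (edgeR 4.0.16 in R 4.3.3, TMM, quasi-likelihood F test, Benjamini-Hochberg threshold 0.05). The difference between experiments was fitted over all 14 libraries. CPM was TMM-scaled, except for H2-Ea and Atf3, which were CPM of total counts. Log2 CPM used a prior count of 2. All 10 presentation genes were named, and from the other lists those passing and up to 3 with the smallest p per list and comparison. Beside a named gene the value in the other comparison was also given, chosen after its values were seen. The genes and lists were chosen with earlier results of these data known. The paper names the knockout RNA-seq samples as biological replicates. Litters are not stated, so p-values measure only the spread between these libraries. Alternatives used DESeq2 1.42.0 and limma 3.58.1. Columns left out numbered 0. One gene among those most alike to the class II mean is not reported here.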

Additional observations from a re-analysis of the deposited data

Results flagged for a closer look

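In groups of 4 libraries, the gap of the highest or lowest library to its neighbour was set against the range of the group and against Dixon's 95% critical value. Of 34 groups of values, 7 passed it, and chance alone passes about 1 in 20. Atf3-/-FS6KD replicate 2 stood apart for H2-Aa at 103 CPM, H2-Ab1 at 69.4 CPM and Cd74 at 195 CPM. Atf3+/+FS6KD replicate 2 stood apart in the share of counts on rows _2 and _3, at 28.1% for H2-K1, 46.3% for H2-Aa, 38.6% for H2-Ab1 and 31.9% for H2-Eb1. The 7 values come from 2 libraries and from genes that vary together, so they are not independent.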

How the results depend on the processing

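Of 550 values of the 10 genes under the alternatives, 528 kept their direction and their side of the threshold, 22 reversed, and none passed the adjusted threshold. Leaving out Atf3-/-FS6KD replicate 2 reversed Cd74 in the knockout comparison (range without 1 library -0.17 to 0.56) and in the difference between experiments (-0.11 to 0.61), and Cd40 in the knockout comparison (-0.087 to 0.29). With rows summed as well, an alternative added after the data were seen, it reversed H2-Aa (-0.13), H2-Ab1 (-0.11), H2-Eb1 (-0.086), Cd74 (-0.17), H2-Q4 (-0.017), H2-DMb1 (-0.091) and Cd40 (-0.087). Replicates 3 and 4 alone reversed H2-Aa (-0.15), H2-Ab1 (-0.14), H2-Eb1 (-0.16), Cd74 (-0.13), Ciita (-0.071) and Cd40 (-0.10), and with rows summed as well, also added later, H2-Aa (-0.15), H2-Ab1 (-0.15), H2-Eb1 (-0.16), Cd74 (-0.13), Ciita (-0.070) and Cd40 (-0.10). In the AAV comparison, leaving out shCtrl replicate 1 reversed H2-Aa (range -0.24 to 0.036) and Cd74, and leaving out shAtf3 replicate 2 reversed Cd74 (range -0.19 to 0.034). Leaving out shAtf3 replicate 3 reversed Cdh5 (range -0.0082 to 0.11). Library size alone reversed Ciita in the difference (0.047), and exchanging the AAV groups reversed Tap1 (-0.0016) and Ciita (0.17) there. On the named rows, the class II median fold change was 0.031 in the knockout comparison without Atf3-/-FS6KD replicate 2, and 0.016 in the AAV comparison without shCtrl replicate 1. The cause of these reversals was not tested. Over all genes, the knockout comparison gave 0 calls (1575 genes at an unadjusted p below 0.05), 208 with DESeq2, 2 without a filter, 8 with replicates 3 and 4 alone (3 with rows summed as well), and 0 to 15 without 1 library. DESeq2 called Mertk, Col3a1, Col1a2, Col1a1, Tnnt2 and Actc1 there, and Ctss in the AAV comparison, where Ctss and Cxcl10 also passed without a filter and Ctss without shCtrl replicate 3. The AAV comparison gave 82 calls, 308 with DESeq2, 304 without a filter and 1 to 285 without 1 library. The difference gave 26, 205 with library size alone, 43 with rows summed, 0 to 168 without 1 library and 0 with the AAV groups exchanged (643 at an unadjusted p below 0.05). Replicate numbers did not pair the samples: deviations of equal numbers correlated at 0.0064 to 0.145 in the knockout experiment and -0.00037 to 0.151 in the AAV experiment, and not every library correlated best with its own number. A replicate block gave 0 and 20 calls in the respective comparisons, and Col3a1, Col1a1 and Col1a2 no longer passed in the AAV comparison. Class II minus class I differed between groups by 0.045 in the knockout experiment and 0.12 in the AAV experiment, and moved by less than the SD pooled over both groups under every alternative run. The knockout value was below 0 with rows summed (-0.012), on leaving out Atf3+/+FS6KD replicate 3 (-0.036) or replicate 2 of Atf3-/-FS6KD (-0.12), on summing rows and leaving out the latter (-0.18), and in replicates 3 and 4 alone (-0.19, and -0.20 with rows summed, both added later). Replicates 1 and 2 alone gave 0.28, and 0.17 with rows summed.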
